A study of Drosophila melanogaster with 2 samples.

Results

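The highest bins of the control H3K9me2 profile were the 3107 of 310228 bins of 300 bp with most tags in EHMT+ larvae on arms 2L, 3L, 3R and X, after 1 Mb at the centromeric end and 200 kb at the tip of each arm were left out. They were chosen by their EHMT+ tag counts, and every bin tied at the limit of 85 tags was kept. Together these bins, called high bins here, covered 932.1 kb. The data were ChIP-seq tags from 1 library of the mutant EHMTDD1 (labelled EHMT-KO) and 1 library of the control EHMT+ (labelled wild type). EHMTDD1 carries a deletion, left by an imperfect excision of a P-element, that removes the translational start site of EHMT, and EHMT+ is a precise excision of the same P-element in the same background. Each genotype is thus represented by a single excision line. The material was whole larvae of the third instar, so the profiles average over all larval cell types, and neither the sex nor the number of larvae per library is given in the sources used here. With 1 library per genotype no difference has a replicate check, and no test between genotypes was made.

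H3K9me2 is the dimethylated form of lysine 9 of histone H3, a mark of condensed and transcriptionally repressive chromatin. In flies the mark is dense in the heterochromatin around centromeres, where the methyltransferase Su(var)3-9 is the best known writer and HP1 binds methylated lysine 9. EHMT, the fly relative of mammalian G9a and GLP, is a conserved H3K9 methyltransferase known for its action on euchromatic loci, where the mark lies in scattered patches.

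Each library held 7043913 tags after the authors had equalized the totals, and no 2 tags of a library shared both start and strand. A tag is a read of 36 bp extended to 300 bp and was counted in every bin it overlapped, so a bin can hold at most 1198 tags. Over all bins counted, the mean was 30.3 tags per bin in EHMTDD1 and 30.5 tags per bin in EHMT+, and the median was 28 tags in both. The spread over bins was wider in EHMTDD1, with an SD of 21.1 tags, than in EHMT+, with an SD of 15.9 tags. The limit of 85 tags was 2.79 times the EHMT+ mean, and the highest bin had 269 EHMT+ tags. No input library was used here. The amount of H3K9me2 at a bin and the number of DNA copies with that sequence therefore cannot be told apart in these counts.

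The high bins kept a high tag count in EHMTDD1. Their median was 110 tags in EHMTDD1, with a 5th percentile of 28 and a 95th percentile of 210 tags, against a median of 99 tags in EHMT+. The range was 0 to 379 tags in EHMTDD1 and 85 to 269 tags in EHMT+, so that the mutant counts spread both above and far below the counts by which the bins were chosen. Of the high bins, 2184 (70.3%) held 85 or more tags in EHMTDD1, beside 1.85% of all bins counted. When the same 1% rule was applied to EHMTDD1, the limit was 101 tags and 3113 bins passed. The lists shared 1796 bins, which were 57.8% of the high bins and 57.7% of the EHMTDD1 list, beside 1.00% of all bins counted. The 1317 bins on the EHMTDD1 list alone had a median of 112 tags in EHMTDD1 and 71 tags in EHMT+. The high bins that missed the EHMTDD1 list still had a median of 70 tags in EHMTDD1, above the 95th percentile of 65 tags over all bins.

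Expressed as a log2 ratio of EHMTDD1 to EHMT+ after adding 1 to both counts, the high bins had a median of 0.14 (95% order-statistic interval 0.11 to 0.16), beside a median of 0 over all bins counted. EHMTDD1 had more tags than EHMT+ in 1826 high bins (58.8%), beside 46.6% of all bins. A bin was called lowered where the log2 ratio was -1 or less, and raised where it was 1 or more. Among the high bins, 353 (11.4%, Wilson 95% interval 10.3 to 12.5) were lowered, beside 13.2% of all bins, and 51 (1.64%) were raised, beside 2.90% of all bins. Because the bins were chosen on the EHMT+ counts that stand under the ratio, these shares are a description and no difference from the other bins is read from them. Intervals given for medians and shares of bins are too narrow, since neighbouring bins share tags.

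The choice by EHMT+ tags favours bins whose EHMT+ count came out high by counting error, which pulls the ratio down. To see its size, bins were chosen on the tags of one strand and the ratio was taken from the tags of the other strand. Whether plus and minus tags came from different fragments was not checked. With the choice on plus-strand tags, 3324 bins passed a limit of 43 tags, and on the minus strand they had medians of 51 tags in EHMTDD1 and 47 tags in EHMT+. Their median log2 ratio was 0.15 and 11.4% were lowered, beside 14.8% of all bins on that strand. With the strands exchanged, the median log2 ratio was 0.16 and 11.7% were lowered, beside 14.7% of all bins. The median ratio of the bins so chosen was above 0 whichever strand did the choosing. Both strands come from the same libraries, so the exchange addresses at most counting error of tags and is no replicate check.

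A choice by EHMTDD1 tags pulls the ratio up, and the median log2 ratio was positive for both lists. The 3113 bins of the EHMTDD1 list had medians of 124 tags in EHMTDD1 and 89 tags in EHMT+ and a median log2 ratio of 0.56. None of them was lowered, which the choice nearly fixed. With 101 or more tags in EHMTDD1, a bin could be lowered only at an EHMT+ count that almost no bin reached. At the limit itself, the 155 bins just inside, with 85 EHMT+ tags, had a median of 88 tags in EHMTDD1 (quartiles 63 and 108) and 12.3% of them were lowered. The 147 bins just outside, with 84 EHMT+ tags, had a median of 83 tags in EHMTDD1 (quartiles 62 and 109.5) and 11.6% of them were lowered. EHMTDD1 counts were thus similar on both sides of the limit, which is only a cut by rank between neighbouring EHMT+ counts.

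Among classes of bins with 10 or more EHMT+ tags, the median ratio was lowest at intermediate EHMT+ levels. Bins with fewer EHMT+ tags were not classed. It was 0.17 on the log2 scale in bins with 10 to 19 EHMT+ tags, 0.049 in bins with 20 to 29 tags and -0.047 in bins with 30 to 39 tags. It was -0.089 in bins with 40 to 49 tags, -0.058 in bins with 50 to 69 tags and -0.019 in bins with 70 to 84 tags. Within the high bins it was 0.076 at 85 to 99 tags, 0.14 at 100 to 119 tags, 0.29 at 120 to 149 tags and 0.29 in the 86 bins with 150 or more tags. At the median, bins of the lowest and of the highest of these classes thus had more tags in the mutant library than in the control library. Bins between them had fewer. The lower tail did not follow the median, since the lowered share was 11.7% at 85 to 99 tags, 12.5% at 100 to 119 tags, 7.88% at 120 to 149 tags and 12.8% at 150 or more tags. These classes were formed on EHMT+ counts, the same counts that stand under the ratio.

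**Figure D1:**
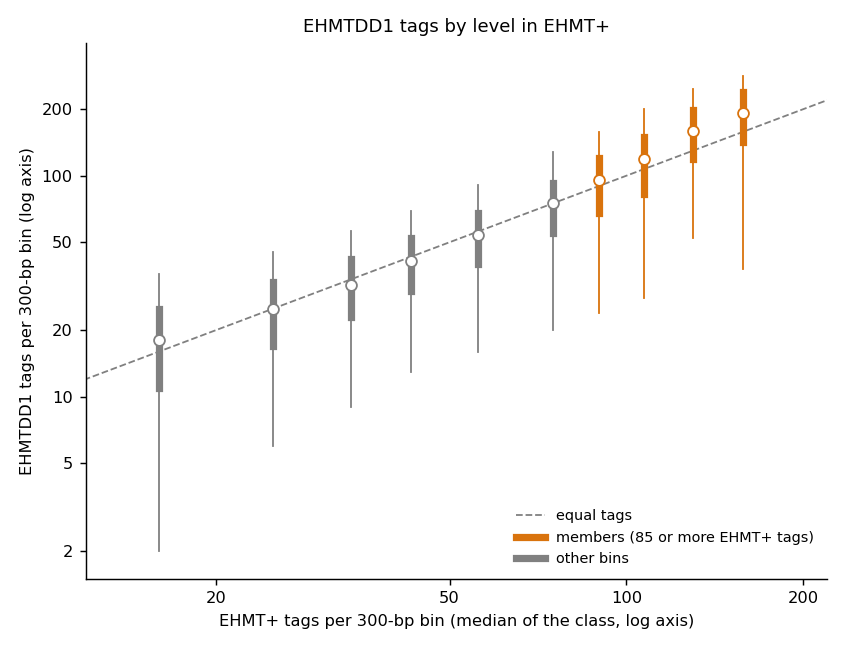
EHMTDD1 tags per 300-bp bin (vertical, log axis) against EHMT+ tags per bin (horizontal, log axis) in classes of bins by EHMT+ count. Circles are medians, thick bars run between the quartiles, thin bars run from the 5th to the 95th percentile, orange marks high bins and grey marks other bins. The medians pass above the dashed line of equal tags within the high bins, and the thin bars reach down to 24 tags at 85 to 99 EHMT+ tags and to 38 tags at 150 or more.

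The high bins were spread unequally over the arms. X held 1229 (1.74% of its 70741 bins) and 3L held 1078 (1.39% of 77795), whereas 2L held 544 (0.748% of 72697) and 3R held 256 (0.288% of 88995). X and 3L thus contributed 39.6% and 34.7% of the high bins, 2L contributed 17.5% and 3R contributed 8.24%. Mean tag counts of the arms lay much closer together. They were 31.6 tags per bin in EHMTDD1 and 32.5 in EHMT+ on X, and 30.8 in both genotypes on 3L. On 2L they were 28.7 in EHMTDD1 and 29.3 in EHMT+, and on 3R they were 30.3 in EHMTDD1 and 29.5 in EHMT+. By the same rule EHMTDD1 gave a similar order of arms, with 1.69% of bins on X, 1.26% on 3L, 0.717% on 2L and 0.472% on 3R.

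The excess on 3L came from its centromeric end. In the first 1 Mb next to the excluded part, 705 of 3333 bins on 3L were high, against 373 in the rest of the arm. Toward that end the mean count climbed unevenly. It was 28.3 tags per bin in both genotypes from 22.5 to 22.6 Mb, and 35.1 tags in EHMTDD1 and 41.4 tags in EHMT+ from 22.7 to 22.8 Mb. It was 34.2 tags in EHMTDD1 and 51.1 tags in EHMT+ from 22.9 to 23 Mb, and 65.3 tags in EHMTDD1 and 79.3 tags in EHMT+ from 23 to 23.1 Mb. The next 100 kb had 37.7 tags in EHMTDD1 and 44.6 tags in EHMT+. The stretch from 23.2 to 23.3 Mb had the highest means of these stretches, 90.0 tags in EHMTDD1 and 91.4 tags in EHMT+. Beyond it EHMTDD1 had the higher mean, with 58.3 tags against 52.3 tags in EHMT+ from 23.3 to 23.4 Mb. From 23.4 to 23.5 Mb it had 70.3 tags against 58.2 tags, and 55.2 tags against 47.5 tags from there to base 23538600. From 23 Mb to the end of the counted part (bases 23000101 to 23538600), 658 of 1795 bins (36.7%) were high and the mean was 63.7 tags in EHMTDD1 and 63.9 tags in EHMT+, against 30.0 tags in both genotypes over the 76000 bins before. Those bins are therefore euchromatic only by the distance rule, and their level stands apart from the rest of the arm. When 2 Mb were left out at each centromeric end, and the limit was set anew, 3L held 0.710% of its bins, whereas X held 2.33%, 2L 0.770% and 3R 0.411%.

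The other arms held fewer high bins in the 1 Mb next to the excluded part, with 143 (4.29%) on 2L. X had 35 and 3R had 33 in the corresponding stretch. On X the high bins lay along most of the arm, with the densest 1-Mb interval 6 to 7 Mb from the centromeric end, where 209 bins (6.27%) were high.

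**Figure D2:**
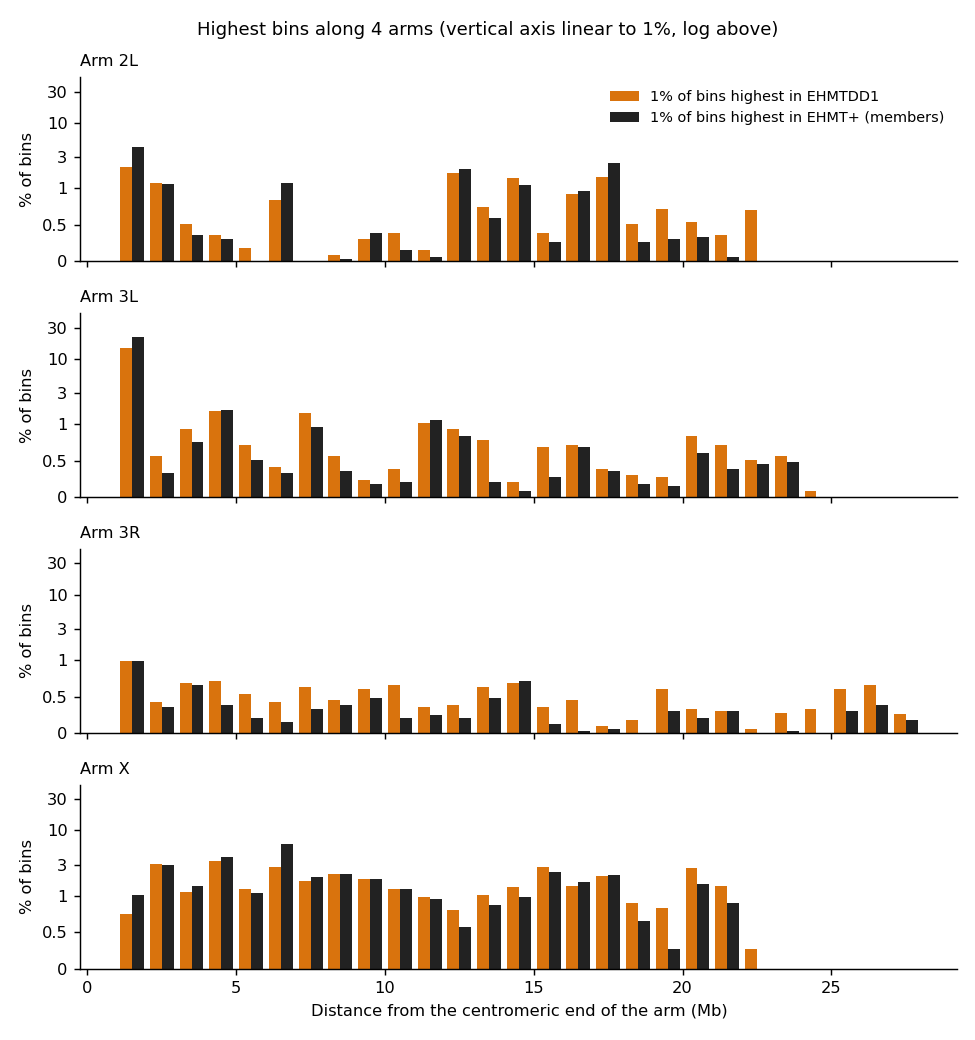
Share of bins (vertical, percent, linear to 1% and logarithmic above) in 1-Mb intervals by distance from the centromeric end (horizontal, Mb) on 4 arms. Orange bars are the 1% of bins highest in EHMTDD1 and black bars the 1% highest in EHMT+. On 3L the interval from 1 to 2 Mb reaches 14.5% in EHMTDD1 and 21.2% in EHMT+, while 3R stays below 1% in both.

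At a finer scale the high bins were gathered in few places. Of 933 windows of 100 kb, 564 (60.5%) held none, and 73 windows with 10 or more held 2103 of the high bins (67.7%). Of 96 windows of 1 Mb, 7 held none. Of the 6 fullest windows of 100 kb, 5 lay at the end of 3L, with 202 high bins from 23.2 to 23.3 Mb and 166 from 23 to 23.1 Mb. Outside that stretch the fullest were X 16.3 to 16.4 Mb with 104, X 17.8 to 17.9 Mb with 67, X 15.8 to 15.9 Mb with 66, X 6.4 to 6.5 Mb with 60 and 2L 5.1 to 5.2 Mb with 53. High H3K9me2 counts in EHMT+ thus came as local clusters with long stretches of ordinary counts between them.

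Runs of consecutive high bins, called islands, numbered 1051. Of these, 375 were single bins, 282 had 2 bins, 209 had 3 or 4 bins, 144 had 5 to 9 bins and 41 had 10 or more, up to 25 bins or 7500 bp. Islands of 2 or more bins held 87.9% of the high bins, and the 185 islands of 5 or more bins held 47.3%. A tag of 300 bp usually reaches 2 bins, so neighbouring bins are not independent, and when each tag was counted once at its midpoint 67.9% of the bins chosen lay in islands of 2 or more. The gap between neighbouring islands had a median of 9300 bp, with quartiles of 900 and 79050 bp and a longest gap of 1744200 bp. Of the 1047 gaps, 432 (41.3%) were 3 kb or shorter and 102 were a single bin, so many islands were parts of a wider patch. Joining islands over gaps of up to 3 bins gave 775 islands, the largest with 91 high bins, not counting the bins bridged.

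Island numbers and widths followed the arms. X had 425 islands, 3L 316, 2L 195 and 3R 115, and the widest had 25 bins on X and on 3L, 17 bins on 2L and 8 bins on 3R. The EHMTDD1 list broke up more. Its 3113 bins formed 1270 islands, of which 550 were single bins, and 82.3% of its bins lay in islands of 2 or more. EHMTDD1 had 137 islands of 5 or more bins, against 185 in EHMT+, but the widest had 36 bins in EHMTDD1, against 25 in EHMT+.

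Around the islands the counts stayed above the library mean for several kb. Bins outside the list, 0.9 to 1.8 kb from an island's edge, had a mean of 42.4 tags in EHMTDD1 and 48.1 tags in EHMT+, which is 1.40 times the EHMTDD1 mean and 1.58 times the EHMT+ mean. At 2.7 to 6 kb the means were 35.6 tags in EHMTDD1 and 39.4 tags in EHMT+, or 1.17 times the EHMTDD1 mean and 1.29 times the EHMT+ mean. At these distances the flank bins outside the list thus had a lower mean in EHMTDD1 than in EHMT+, whereas the centres of islands of 2 or more bins had a higher one. Islands and flanks were both set by EHMT+ counts, so this contrast is a description. Flank bins lay below the limit in EHMT+, while their EHMTDD1 counts were left free. The part of the choice in the contrast was not tested. At single bins the mean was 87.2 tags in EHMTDD1 and 90.1 tags in EHMT+. Around islands of 5 or more bins the difference in the flanks was wider, with 38.6 tags in EHMTDD1 and 48.2 tags in EHMT+ at 0.9 to 1.8 kb. Inside islands of 3 or more bins, the outermost bins had medians of 104.5 tags in EHMTDD1 and 96 tags in EHMT+ and a median log2 ratio of 0.092. The inner bins had medians of 131 tags in EHMTDD1 and 112 tags in EHMT+ and a median log2 ratio of 0.24.

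**Figure D3:**
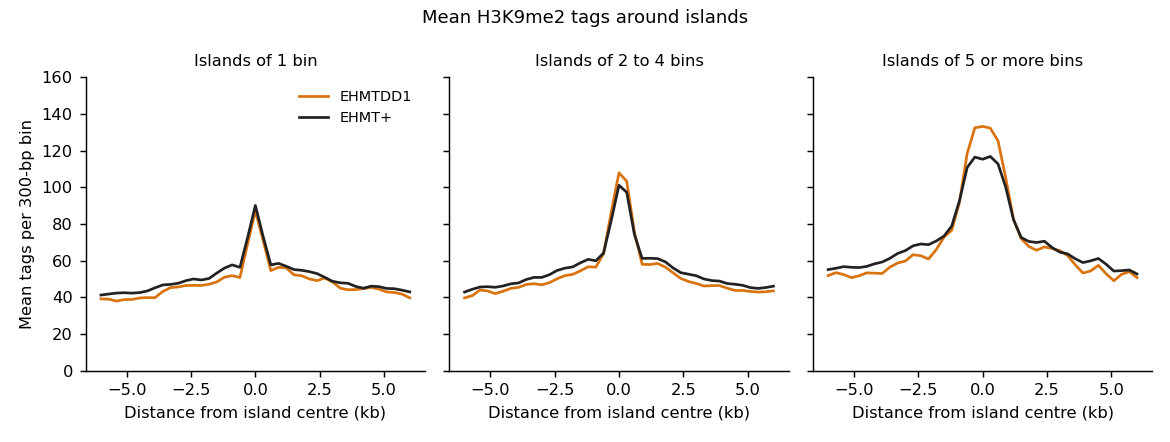
Mean tags per 300-bp bin (vertical) against distance from the island centre (horizontal, kb) for islands of 1 bin, of 2 to 4 bins and of 5 or more bins, with EHMTDD1 in orange and EHMT+ in black. At the centre of the 185 islands of 5 or more bins the mean is 133 tags in EHMTDD1 and 115 tags in EHMT+, and 6 kb to the left it is 51.9 tags in EHMTDD1 and 55.1 tags in EHMT+. These means take in every bin at a distance, also high bins of neighbouring islands, unlike the flank means in the text.

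The median ratio was higher in wider islands, whose width was set by EHMT+ counts. The median log2 ratio was 0.015 in single bins, 0.089 in islands of 2, 0.15 in islands of 3 or 4, 0.17 in islands of 5 to 9 and 0.25 in islands of 10 or more bins. The share of bins also on the EHMTDD1 list was 36.8% in single bins and 73.2% in islands of 10 or more. Each island's tags were then counted once, by midpoint, and the ratio of EHMTDD1 to EHMT+ had a median of 1.08 over the 1051 islands. It was above 1 in 618 of them. The exact conditional binomial 95% interval, which covers counting error only, lay wholly above 1 in 273 islands and wholly below 1 in 210. These islands were chosen on the EHMT+ tags under the ratio, so the counts are a description. No such counts were made for runs of other bins, so they do not set the islands apart from other bins. All bins of 358 islands were on the EHMTDD1 list, and no bin of 408 islands was, of which 237 were single bins.

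Most lowered bins lay in islands whose other bins kept more of their tags. The 353 lowered bins formed 224 runs, of which 142 were single bins and the longest had 6 bins. Of the lowered bins, 234 lay in islands with other bins that were not lowered. Runs were counted among high bins only, so a run ended at any bin outside the list, even one equally low in EHMTDD1. Next to 3L:23217601-23225100, such bins at 3L:23225101-23226300 had 3, 4, 4 and 9 tags in EHMTDD1 against 40, 54, 82 and 82 tags in EHMT+. The width of lowered stretches beyond the list was not measured. Of the 41 islands of 10 or more bins, 21 (51.2%) had some lowered bins and none was lowered throughout. Of the 144 islands of 5 to 9 bins, 53 (36.8%) had some lowered bins and none was lowered throughout. Islands lowered in every bin were 7 of 209 with 3 or 4 bins, 21 of 282 with 2 bins and 54 of the 375 single bins. For single bins that is 14.4%, close to the 13.2% of all bins counted. No such background was taken for wider runs. A wider island has more bins of which 1 can be lowered, so these shares do not compare islands of different width. Of the high bins, 95 had fewer than 20 tags in EHMTDD1, 22 had fewer than 10 and 1 had none. Over all bins counted, the 25th percentile in EHMTDD1 was 17 tags and the 5th percentile was 2 tags.

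**Figure D4:**
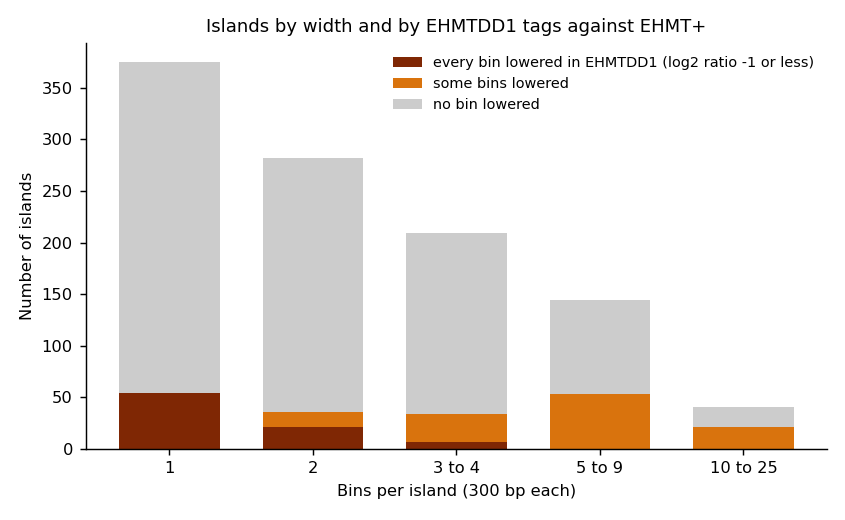
Number of islands (vertical) by width in bins of 300 bp (horizontal). Dark red marks islands in which every bin was lowered in EHMTDD1 (log2 ratio of -1 or less), orange those with some lowered bins and grey those with none. Among the 41 islands of 10 or more bins, 21 have some lowered bins and 20 have none.

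EHMTDD1 profiles were more uneven along an island than EHMT+ profiles. In the 185 islands of 5 or more bins, the coefficient of variation of tag counts over the bins of an island had a median of 32.3% in EHMTDD1 and 12.9% in EHMT+, and it was larger in EHMTDD1 in 175 of them. Near the centromeric end of 3L the medians were 42.9% in EHMTDD1 and 14.8% in EHMT+ over 54 islands, and elsewhere they were 29.6% in EHMTDD1 and 12.0% in EHMT+ over 131 islands, larger in EHMTDD1 in 123. The unevenness was thus not confined to the end of 3L. The limit of 85 tags bounds the EHMT+ counts of an island from below and leaves the EHMTDD1 counts free, and the part of the choice in this difference was not tested.

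Over the 4 arms together, lowered bins made up a larger share near the centromeric ends, among high bins and among all bins alike. In the 1 Mb next to the excluded parts, 191 of 916 high bins (20.9%) were lowered, beside 19.4% of all bins there, whereas farther out 162 of 2191 (7.39%) were lowered, beside 12.9% of all bins. The end of 3L alone held 149 of the 353 lowered high bins (42.2%) and 22.7% of all high bins. There 21.1% of high bins were lowered, beside 24.9% of all bins. On the rest of 3L, 14 of 373 high bins (3.75%) were lowered, beside 13.0% of all bins. On 2L, 16.8% of high bins were lowered near the centromeric end, beside 23.8% of all bins, and 9.23% farther out, beside 13.6% of all bins. On X, 14 of the 35 high bins near the end were lowered, beside 17.6% of all bins, and 8.21% of the 1194 farther out, beside 14.2% of all bins. On 3R, 4 of the 33 high bins near the end were lowered, beside 11.3% of all bins, and 5.83% of those farther out, also beside 11.3% of all bins. The arms thus did not share 1 pattern relative to their own bins. Without the end of 3L, 204 of 2402 high bins (8.49%) were lowered and the median log2 ratio was 0.15.

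Retention also varied by arm. The share of high bins on the EHMTDD1 list was 64.1% on 3R, 60.3% on 3L, 57.4% on X and 50.7% on 2L. Median log2 ratios were 0.19 on 3R, 0.18 on 3L, 0.13 on X and 0.058 on 2L, and the lowered share was 6.64% on 3R, 15.1% on 3L, 9.11% on X and 11.2% on 2L. Over all bins of each arm the lowered share was 11.3% on 3R, 13.5% on 3L, 14.3% on X and 14.0% on 2L. On 3L the high bins differed by position. The median log2 ratios were 0.071 for the 705 high bins near its centromeric end and 0.24 for the 373 farther out.

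The widest islands showed both patterns. At X:6449101-6456600 (Release 5 coordinates, as all positions given here), a run of 25 bins held 2397 tags in EHMTDD1 and 1559 tags in EHMT+, a ratio of 1.54 (1.44 to 1.64). Bins ranged from 106 to 249 tags in EHMTDD1 and from 86 to 147 tags in EHMT+, and every bin was on the EHMTDD1 list. A neighbour at X:6470701-6476400, 19 bins wide, held 1550 tags in EHMTDD1 and 1079 tags in EHMT+ (1.44, 1.33 to 1.55). The window from 6.4 to 6.5 Mb on X had no lowered bin among its 60 high bins and a median log2 ratio of 0.52. Of its 6 islands, 4 had an interval above 1 and 1 had an interval below 1, at a ratio of 0.570. At 3L:20410501-20416500, 20 bins held 1562 tags in EHMTDD1 and 1291 tags in EHMT+ (1.21, 1.12 to 1.30), again with every bin on the EHMTDD1 list.

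The island of 25 bins at 3L:23217601-23225100 had nearly equal totals, 1481 tags in EHMTDD1 and 1507 tags in EHMT+ (0.983, 0.914 to 1.06), made of unequal parts. Its EHMTDD1 bins ranged from 15 to 264 tags and its EHMT+ bins from 87 to 164 tags. A run of 4 bins had 15, 24, 25 and 33 tags in EHMTDD1 against 87, 90, 132 and 151 tags in EHMT+, while 2 bins near its start had 264 and 214 tags in EHMTDD1 against 164 and 148 tags in EHMT+. Over the island, 13 bins had more tags in EHMTDD1 than in EHMT+ and 12 had fewer, 6 of them lowered. At 3L:23023801-23029500, 19 bins held 992 tags in EHMTDD1 and 1176 tags in EHMT+ (0.844, 0.774 to 0.919). A run of 4 bins there had 7, 4, 6 and 4 tags in EHMTDD1 against 87, 93, 95 and 88 tags in EHMT+, and the highest bin had 224 tags in EHMTDD1 against 150 tags in EHMT+.

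**Figure D5:**
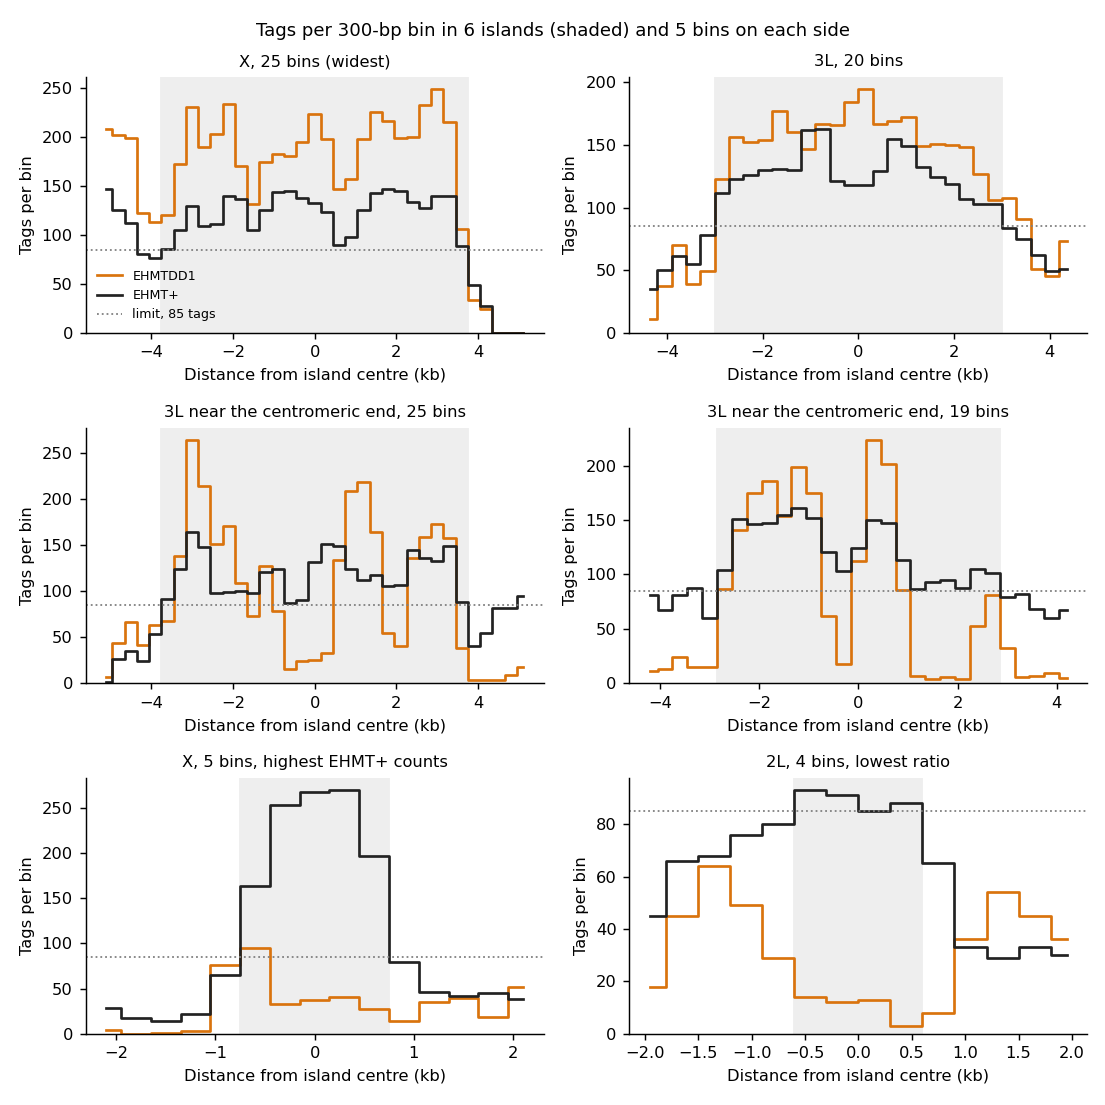
Tags per 300-bp bin (vertical) against distance from the island centre (horizontal, kb) in 6 islands, with 5 bins on each side, EHMTDD1 in orange and EHMT+ in black. Shading marks the island and the dotted line the limit of 85 tags. On X the widest island is higher in EHMTDD1 at every bin, the islands at the end of 3L hold EHMTDD1 counts above EHMT+ beside runs as low as 15 to 33 tags in the 25-bin island and 4 to 7 tags in the 19-bin island, and the 5-bin island on X is lower in EHMTDD1 at every bin.

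The other wide islands fell on either side of equality. On X, 20 bins at X:16368001-16374000 held 890 tags in EHMTDD1 and 1142 tags in EHMT+ (0.779, 0.713 to 0.851), with 5 lowered bins. This island stood in the fullest window outside 3L, from 16.3 to 16.4 Mb, where 16 islands held 5513 tags in EHMTDD1 and 6140 tags in EHMT+ (0.898, 0.866 to 0.931). The 17 bins at 2L:16782901-16788000 held 1089 tags in EHMTDD1 and 1028 tags in EHMT+ (1.06, 0.972 to 1.15), an interval that includes 1. The 3 further islands at the end of 3L ranged widely. The 17 bins at 3L:23525701-23530800 held 1583 tags in EHMTDD1 and 933 tags in EHMT+ (1.70, 1.56 to 1.84). The 15 bins at 3L:23297701-23302200 held 1246 tags in EHMTDD1 and 824 tags in EHMT+ (1.51, 1.38 to 1.65), and the 15 bins at 3L:23010301-23014800 held 479 tags in EHMTDD1 and 849 tags in EHMT+ (0.564, 0.503 to 0.632).

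The 4 highest bins of the EHMT+ profile were neighbours in 1 island at X:8188201-8189700. Its 5 bins had 95, 33, 37, 41 and 27 tags in EHMTDD1 against 163, 253, 267, 269 and 197 tags in EHMT+. By midpoint the island held 132 tags in EHMTDD1 and 603 tags in EHMT+, a ratio of 0.219 (0.180 to 0.265). Both strands contributed to its top bin, with 16 plus and 25 minus tags in EHMTDD1 against 134 and 135 in EHMT+. The place with the highest control count was thus among the islands least kept by EHMTDD1, and 4 of its bins had 27 to 41 tags in EHMTDD1, near the mean of 30.3 over all bins. The fifth highest bin, X:20655301-20655600, had 93 tags in EHMTDD1 and 190 tags in EHMT+.

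Among islands of 3 or more bins, 4 others had the lowest ratios. At 2L:21235501-21236700 the 4 bins had 14, 12, 13 and 3 tags in EHMTDD1 against 93, 91, 85 and 88 tags in EHMT+, which is 17 tags against 188 by midpoint and a ratio of 0.0904 (0.0516 to 0.149). At 3L:23386801-23388600 the 6 bins had 0, 4, 12, 11, 11 and 56 tags in EHMTDD1 against 108, 150, 123, 85, 90 and 92 tags in EHMT+. That island held the 1 high bin with no EHMTDD1 tag. The 3-bin islands at 3L:23440801-23441700 and 3L:23438701-23439600 held 21 and 34 tags in EHMTDD1 against 147 and 152 tags in EHMT+. All 4 lay within 2 Mb of a centromeric end, unlike the island on X.

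The highest ratios were reached on 2L, 3L and X. The 3 bins at 2L:9291301-9292200 had 230, 276 and 187 tags in EHMTDD1 against 86, 100 and 95 tags in EHMT+, a ratio of 2.54 by midpoint (2.08 to 3.10). At 2L:20104801-20106600 the 6 bins ranged from 190 to 339 tags in EHMTDD1 against 104 to 145 tags in EHMT+, and the ratio was 2.16 (1.92 to 2.44). The islands at 3L:23376901-23377800, 3L:23461501-23463300 and X:20222701-20223600 had ratios of 2.36, 1.98 and 1.92. The first of these shares the window from 23.3 to 23.4 Mb with the 6-bin island that had 0 to 56 tags in EHMTDD1, so ratios far above and far below 1 stood side by side at the end of 3L.

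Tags in the high bins came from both strands alike. Plus-strand tags made up 49.99% of them in EHMTDD1 and 49.86% in EHMT+. The share per bin in EHMT+ ran from 41.9% at the 5th percentile to 57.7% at the 95th, and 3 high bins lay outside 30 to 70%. Bins without a tag in either library, which include sequence where no unique tag can map, numbered 10595. Such a bin lay within 1.5 kb of 77 high bins (2.48%), beside 2.38% of all bins with a tag. Of these 77, 13.0% were lowered, against 11.3% of the other high bins.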

How the data were processed

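The authors immunoprecipitated H3K9me2 from larvae, sequenced 36-bp reads, aligned them to BDGP Release 5 (dm3) with 1 mismatch allowed, kept uniquely aligning tags, extended them to 300 bp and equalized both libraries to 7043913 tags. The deposited values are the positions and strands of extended tags. How tags were drawn during equalization, and the loss of repeated sequence, affect the counts.

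Members and lists were chosen with earlier results of these data known. Tags were counted in 300-bp bins from base 1 of 4 arms. Arm ends were taken from the last tag. Log2 ratios used a pseudocount of 1. Intervals are 95% intervals. Those of tag ratios cover counting error only, and those of medians and shares treat bins as independent units. The positions named were fixed by a rule: the 10 widest islands, the 5 bins with most EHMT+ tags and, among islands of at least 3 bins, the 5 lowest and 5 highest ratios. The fullest windows were named after their values were seen. Alternatives covered tag counting, bin grid and size, the limit, the part left out, bins without tags, pseudocount, scaling, strand and island joining, and a limit for each arm was chosen after seeing the data. Counting and island finding were tested on simulated data. Gene names and sequences are not given, since no Release 5 genome or annotation was used here. The position of EHMT was not used to check the labels. Counts were made with NumPy 2.4.6 and pandas 2.3.3 in Python 3.11.15, intervals with SciPy 1.17.1, and plots with Matplotlib 3.10.9.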

Additional observations from a re-analysis of the deposited data

How the results depend on the processing

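Over 46 alternatives of the values reported here, 25 stayed within the counting interval of the value given and 21 moved beyond it. Only the median log2 ratio has a sign that could reverse, and it stayed positive in each of its alternatives. The other values are shares. With each tag counted once by midpoint, the median log2 ratio was 0.093, 50.9% of high bins were on the EHMTDD1 list, 15.1% were lowered (beside 19.9% of all bins) and 67.9% lay in islands of 2 or more bins. With 600-bp bins, 59.9% were on the EHMTDD1 list and 80.9% lay in islands of 2 or more. With the limit at 0.5% of bins the median log2 ratio was 0.21 and 55.7% were on the EHMTDD1 list, and at 2% these values were 0.053 and 55.9%. With 2 Mb left out at the centromeric ends, 7.77% were lowered and 85.7% lay in islands of 2 or more. Joining islands over 1 and over 3 bins gave 89.5% and 91.6%. A limit set for each arm, chosen after seeing the data, gave a median of 0.11, 53.8% on the EHMTDD1 list and 85.4% in islands of 2 or more. Bins chosen on minus-strand tags had a median of 0.16. The grid shift, pseudocount, scaling and removal of bins without tags moved none of the values they were applied to. No paired analysis was possible because only 1 library per genotype was analysed here. At about 30 tags per bin a single ordinary bin shows little, and copy number, antibody efficiency and larval sex were not measured.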
